A study of Danio rerio with 6 samples.

Results

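RNAseq of GFP+ cells purified by FACS from uninjured retinas of adult gfap:GFP zebrafish is described here, as the RNA levels and ranks of named protein-coding genes within the 2 uninjured libraries. Rows of the deposited table were kept once for each gene identifier and summed by gene symbol. A symbol was taken as a named protein-coding gene where it matched a RefSeq zebrafish protein-coding gene by symbol or synonym. Short RNAs, clone-named rows, rows with several symbols joined and genes of the mitochondrial genome were left out, which kept 12532 of 27152 symbols, from 30689 gene rows. The series holds 6 libraries in 3 groups of 2, and the other groups, from retinas at 2 days after a needle poke injury with or without an apobec2a/apobec2b morpholino, were not compared with the uninjured one. The uninjured cells carry the gfap:GFP transgene, in which the promoter of the intermediate filament gene gfap drives GFP, and had no needle poke and no morpholino. The sort therefore rests on the activity of that promoter and on the GFP gate. The labels state neither the sex of the fish nor how many were pooled, and nothing says that the libraries came from separate animals, so the spread between them may be technical. They are called a and b here after the column names, which carry no number that matches the sample labels.

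Müller glia (MG), the main glia of the vertebrate retina, span its full thickness, from the photoreceptors to the vitreous. They take up glutamate and GABA from synapses, convert glutamate to glutamine, move potassium and water, buffer pH, recycle retinoids for cones and supply neurons with metabolites. In fish they also divide after an injury and make new neurons, whereas in the uninjured retina most stay quiescent. Their membranes wrap the cell bodies of rods, cones and inner retinal neurons. Levels are given as FPKM, a measure that divides the fragments of a gene by transcript length in kilobases and by the mapped fragments of its library, first for library a and then for library b. Levels of different genes are compared on this per-length scale only. The number of sequenced fragments is unknown from FPKM and scaled fragment values were not used, so no counting interval or detection floor is given. A gene at 0 is described as listed at 0.

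Of the 12532 named genes, 8738 (69.7%) were at 1 FPKM or more in both libraries, 6040 (48.2%) at 5 FPKM or more and 453 (3.61%) at 100 FPKM or more. Among these nuclear genes, 18 reached 1000 FPKM in both libraries, and 696 were listed at 0 in both. The shares of all named genes above are the background for the counts of each list below. The median named gene was at 4.91 FPKM in library a and 4.99 FPKM in library b. The 100 genes with the highest level held 26.9% of the named-gene FPKM in library a and 27.0% in library b, and the 1000 highest held 64.3% and 64.2%. Named genes made up 26.4% and 26.8% of all FPKM in the table. Clone-named rows, which were left out, held 45.8% and 47.3%, and rows of joined symbols 16.51% and 15.096%. Across these classes, the 29 rows on the mitochondrial chromosome held 48.9% of all FPKM in library a and 46.5% in library b. The 6 mitochondrial protein-coding genes listed by name were each above 1000 FPKM, with mt-co2 and mt-co1, subunits of cytochrome c oxidase, at 12730 and 11979 FPKM and at 12510 and 11401 FPKM.

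The libraries differed little for genes with a high level. On the log2(FPKM + 1) scale, the Pearson correlation between them was 0.988 across 9098 named genes with at least 1 FPKM in either library, which is a correlation across genes and not across replicates. The SD of the log2 difference between the libraries was 0.32 for genes with a mean of 1 to 5 FPKM, 0.22 from 10 to 50 FPKM and 0.13 from 100 to 1000 FPKM. In the same classes, 95% of genes differed by less than 1.56-fold, 1.32-fold and 1.16-fold in FPKM + 1. All limits for 95% of genes given below are on this scale. It gives smaller folds than plain FPKM, most of all at low levels. Differences between genes below are read against this spread. An exact two-sided permutation test over 2 libraries cannot go below p = 0.5, so no test is given.

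**Figure D1:**
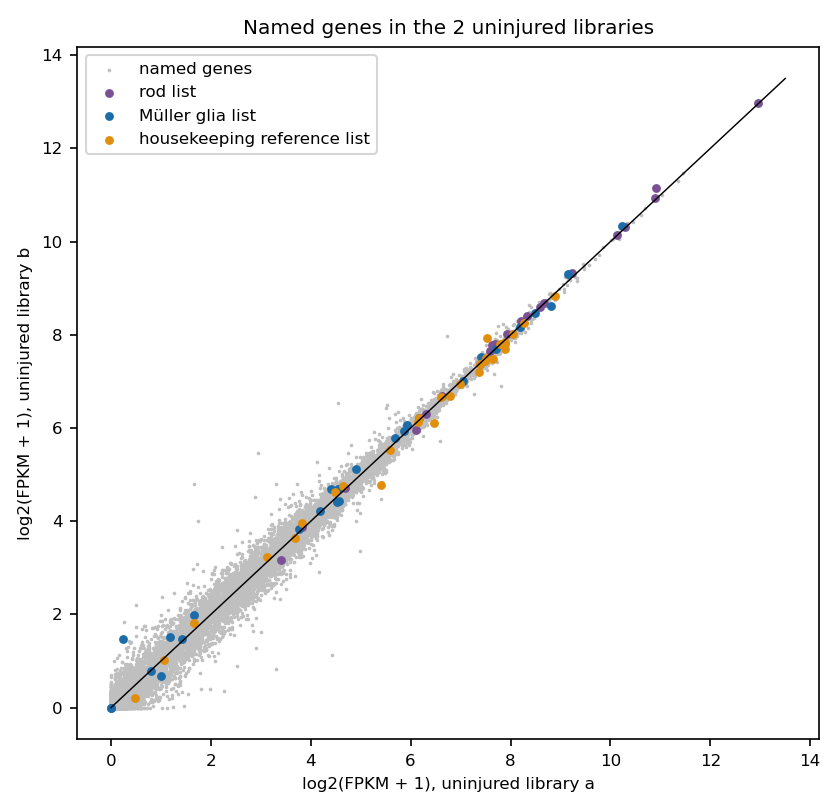
Level of each named gene in uninjured library a (x axis) and library b (y axis), both as log2(FPKM + 1), with the line of equal level. Grey points are all named genes, and coloured points are the rod, Müller glia and housekeeping reference lists. The points narrow toward the line as the level rises, and rho lies at the upper end in both libraries.

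Among the named nuclear genes, the highest level was that of rho, which encodes the rod visual pigment rhodopsin, at 7954 FPKM in library a and 8087 FPKM in library b. Among all 27152 symbols of the table, left-out rows included, rho had rank 12 and ckbb rank 38. The table places rho at bases 55706884 to 55708411 of chromosome 8, in a build that the sources used here do not name. The second named nuclear gene was ckbb, a brain-type creatine kinase, at 2804 and 2830 FPKM. Among the other genes at the top, pde6h, the inhibitory subunit of the cone phosphodiesterase, was at 2601 and 2536 FPKM. Its listed locus is shared with another row. gngt1, the gamma subunit of rod transducin, was at 1929 and 2288 FPKM. cabp5a, a calcium-binding protein of bipolar cells, was at 2090 and 2036 FPKM, and its values lie between those of gngt1, so the order of this pair is not resolved. gnat1, the alpha subunit of rod transducin, was at 1905 and 1954 FPKM. rbp4l, a member of the retinol-binding protein 4 family, was at 1647 and 1676 FPKM, and gapdhs, a glyceraldehyde-3-phosphate dehydrogenase, at 1562 and 1512 FPKM.

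Of the 30 genes with the highest mean, 6 belong to the list of rod genes, 3 to the cone list, 3 to glucose metabolism, 2 to ion transport and 1 to the MG list, and 11 to no list. The MG gene was glula, which encodes glutamine synthetase, at 1196 and 1280 FPKM and rank 13 and 12. It did not separate from its neighbours, since ppdpfa was at 1241 and 1301 FPKM and sagb, a rod arrestin, at 1245 and 1280 FPKM. In the order of means, 17 of the 29 steps between neighbours had no overlap, with both libraries of the lower gene under both of the higher gene. Such a step can be small, as from oaz1 at 1130 and 1176 FPKM to pde6g at 1128 and 1126 FPKM. At 1000 FPKM and above, 95% of genes differed by less than 1.09-fold between the libraries. A step without overlap therefore does not by itself resolve the order. The genes of no list included cirbp, a cold-inducible RNA-binding protein, at 1285 and 1346 FPKM. oaz1, an antizyme that limits polyamine synthesis, was at 1130 and 1176 FPKM. ddx5, an RNA helicase, was at 1035 and 1053 FPKM. Also among them were fam107b at 1054 and 1056 FPKM and mdh1a, a cytosolic malate dehydrogenase, at 706 and 677 FPKM. ogt.1, which adds O-GlcNAc to proteins, was at 618 and 643 FPKM, efna1b, an ephrin-A ligand, at 638 and 595 FPKM, and ndrg1a at 621 and 601 FPKM.

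**Figure D2:**
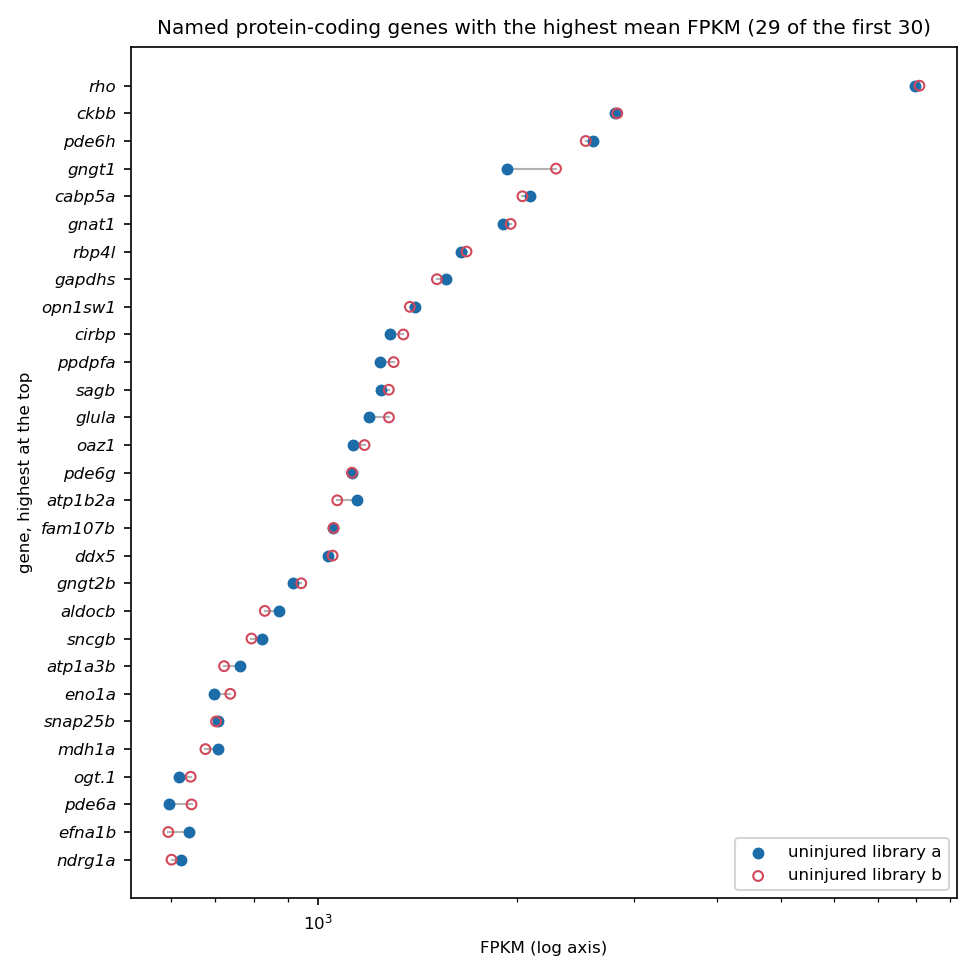
FPKM of 29 of the 30 named genes with the highest mean in uninjured library a (filled) and library b (open), on a log axis. The gap from rho to ckbb is the widest step, and neighbours from ogt.1 to ndrg1a overlap between the libraries.

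MG genes were present at a wide range of levels. Of the 30 genes of the MG list, 27 were matched, and 22 of these (81.5%, against 69.7% of all named genes) were at 1 FPKM or more in both libraries. Their median was 23.5 FPKM, against 4.95 FPKM over all named genes, and 8 of 27 reached 100 FPKM, against 3.61% of all named genes. After glula, apoeb, which encodes the lipid carrier apolipoprotein E, was at 571 and 631 FPKM. clu, the secreted chaperone clusterin, was at 449 and 393 FPKM. rlbp1a, the retinaldehyde-binding protein of MG, was at 357 and 350 FPKM. cahz, a carbonic anhydrase, was at 289 and 286 FPKM, and slc1a2b, a glutamate transporter, at 207 in each library. The listed locus of slc1a2b is shared with another gene row, and the table marks at least 1 comparison of this gene as failed or low in data. fabp7a, a fatty acid-binding protein of radial glia, was at 170 and 184 FPKM and the water channel aqp1a.1 at 131 and 129 FPKM. Further down, the gap junction gene cx43 was at 50.2 and 53.8 FPKM and mlc1, a glial membrane protein, at 71.2 and 73.6 FPKM.

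The gene whose promoter drives the GFP, gfap, was at 22.4 and 24.7 FPKM, which is rank 2183 and 1988 of 12532. Its level was thus far below that of glula in both libraries, while the intermediate filament gene vim was at 17.2 and 17.7 FPKM. The other water channel of glia, aqp4, was at 22.6 and 20.5 FPKM, and sox2, a transcription factor of MG and amacrine cells, at 20.2 and 24.7 FPKM. Some genes that often mark MG were low. sox9a was at 2.16 and 2.98 FPKM and sox9b at 1.67 and 1.77 FPKM. slc1a3a, which encodes a glutamate transporter of the GLAST type, was at 1.00 and 0.59 FPKM, and its paralog slc1a3b was listed at 0 in both libraries, as was apoea. s100b was at 0.18 and 1.76 FPKM and dkk3b at 0.75 and 0.72 FPKM. The potassium channel genes kcnj10a and kcnj10b were not matched and are not analysed here.

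RNA of rod genes stood above RNA of MG genes, by median and by sum. The 21 matched rod genes had a median of 250 FPKM, and all 21 were at 5 FPKM or more in both libraries, against 48.2% of all named genes. Their summed level was 17454 and 18176 FPKM, or 6.71% and 6.96% of all named-gene FPKM, against 3763 and 3879 FPKM, or 1.45% and 1.49%, for the MG list. The ratio of the rod sum to the MG sum was 4.64 and 4.69. Of the rod sum, 7954 and 8087 FPKM came from rho. The rod genes cover the phototransduction cascade. Beside rho, gnat1 and gngt1, they include pde6g, the inhibitory subunit of the rod phosphodiesterase, at 1128 and 1126 FPKM. pde6a, a catalytic subunit of that enzyme, was at 596 and 645 FPKM and pde6b, the other, at 319 and 340 FPKM. The disc rim gene rom1b was at 296 and 313 FPKM. Their transcription factors were lower, with nrl at 9.64 and 8 FPKM and nr2e3 at 13.2 and 13.7 FPKM.

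The 18 matched cone genes had a median of 105 FPKM. opn1sw1, which encodes the UV opsin, was at 1402 and 1377 FPKM, and opn1sw2, the blue opsin, at 221 and 198 FPKM. gngt2b, a gamma subunit of cone transducin, was at 916 and 944 FPKM and gnat2, its alpha subunit, at 340 in each library. The red opsin gene opn1lw1 was at 203 and 142 FPKM, and opn1lw2, a tandem copy of it, at 85.1 and 87.3 FPKM. The green opsin gene opn1mw3 was at 95.4 and 51.7 FPKM and opn1mw4 at 61.7 and 48.5 FPKM. The red and green opsin genes are tandem arrays of similar copies, so the split of reads among copies is uncertain. Another row joins opn1mw1 and opn1mw2 and is not counted. The summed level of the cone genes was 6708 and 6518 FPKM, and the lower of these values exceeded the higher MG sum. However, 5 of the 18 cone genes share their listed locus with another row, against 3 of the 27 MG genes. Among these cone genes are pde6h, at 2601 and 2536 FPKM, gngt2b and gnat2, so the cone sum is less certain. Without the 5 genes, the cone sum falls below the MG sum in both libraries, with or without the 3 MG genes.

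Genes of bipolar and amacrine cells were also detected. All 11 matched bipolar cell genes were at 5 FPKM or more in both libraries, against 48.2% of all named genes, with a median of 53.1 FPKM. Their summed level was 0.747 and 0.702 times that of the MG list. Most of this sum of 2810 and 2724 FPKM came from cabp5a, at 2090 and 2036 FPKM. After cabp5a, vsx1, a homeobox gene of bipolar cells, was at 233 and 222 FPKM and trpm1b, a channel of ON bipolar cells, at 101 and 98.8 FPKM. The 14 matched amacrine cell genes had a median of 59.5 FPKM and a summed level of 0.367 and 0.388 times that of the MG list. gad1b, which encodes a GABA-synthesizing enzyme, was at 337 and 388 FPKM and gad2, another, at 136 and 153 FPKM. slc32a1, the vesicular transporter of GABA and glycine, was at 56.1 and 58.8 FPKM. chat, the enzyme of acetylcholine synthesis in starburst amacrine cells, was at 29.2 and 32.7 FPKM, whereas the dopaminergic gene th was at 2.95 and 3.36 FPKM.

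General neuronal and synaptic genes had a similar median. Their 27 matched members had a median of 61.9 FPKM, and 26 (96.3%, against 69.7% of all named genes) were at 1 FPKM or more in both libraries. Their sum of 3615 FPKM in each library was 0.96 and 0.93 times that of the MG list. The SNARE gene snap25b was at 706 and 702 FPKM and its paralog snap25a at 453 and 452 FPKM. The synaptic vesicle genes sypa and syt1a were at 269 and 260 FPKM and at 282 and 312 FPKM. cplx3b and cplx4a, complexins of ribbon synapses, were at 205 and 209 FPKM and at 186 and 162 FPKM. The neuronal RNA-binding protein gene elavl3 was at 68.2 and 75.6 FPKM.

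Horizontal and ganglion cells were represented unevenly. Of 7 horizontal cell genes, 2 (28.6%, against 69.7% of all named genes) were at 1 FPKM or more in both libraries, and the median was 0.495 FPKM. The horizontal cell connexin gene cx55.5 was at 2.89 and 3.25 FPKM, cx52.6 at 1.28 and 0.76 FPKM, and lhx1a at 0.29 and 0.43 FPKM. prox1a, a homeobox gene that other retinal cells use too, was at 29.5 and 29.6 FPKM. The ganglion cell list had a median of 2.24 FPKM over 13 genes, with a wide gap inside it. sncgb, a gamma-synuclein, was at 825 and 794 FPKM, sncga at 112 and 114 FPKM and rbpms2 at 110 and 136 FPKM. The factors that define ganglion cells were lower, with isl2b at 3.23 and 3.71 FPKM and pou4f2 at 2.75 and 2.80 FPKM. The neurofilament gene nefl was at 0.64 and 0.77 FPKM and slc17a6a was listed at 0 in both.

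The label of the samples, GFP+ MG, was checked against these lists. Defining MG genes were detected, and so were defining genes of rods, cones, bipolar and amacrine cells. The medians of these 4 lists were above that of the MG list. The summed level was above that of the MG list for rods and below it for bipolar and amacrine cells. The sums run over lists of unequal size, with 27 MG, 21 rod, 18 cone, 11 bipolar and 14 amacrine cell genes. The cone sum was above the MG sum only with its rows of shared loci counted, so its place is less certain. Over members of at least 1 FPKM, a choice made for cones, bipolar and amacrine cells after seeing the data, the MG median was 55.47 FPKM, above that of bipolar cells (53.1 FPKM) and below those of amacrine cells (61.5 FPKM), cones (105 FPKM) and rods (250 FPKM). The libraries are therefore called the sorted GFP+ fraction here. In bulk RNA, fewer cells of a type and less RNA per cell cannot be told apart. How RNA of photoreceptors and other neurons came into the GFP+ fraction was not tested. No GFP-negative or unsorted library is among the samples used, so whether a gene is higher in GFP+ cells than in other retinal cells was not tested.

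**Figure D3:**
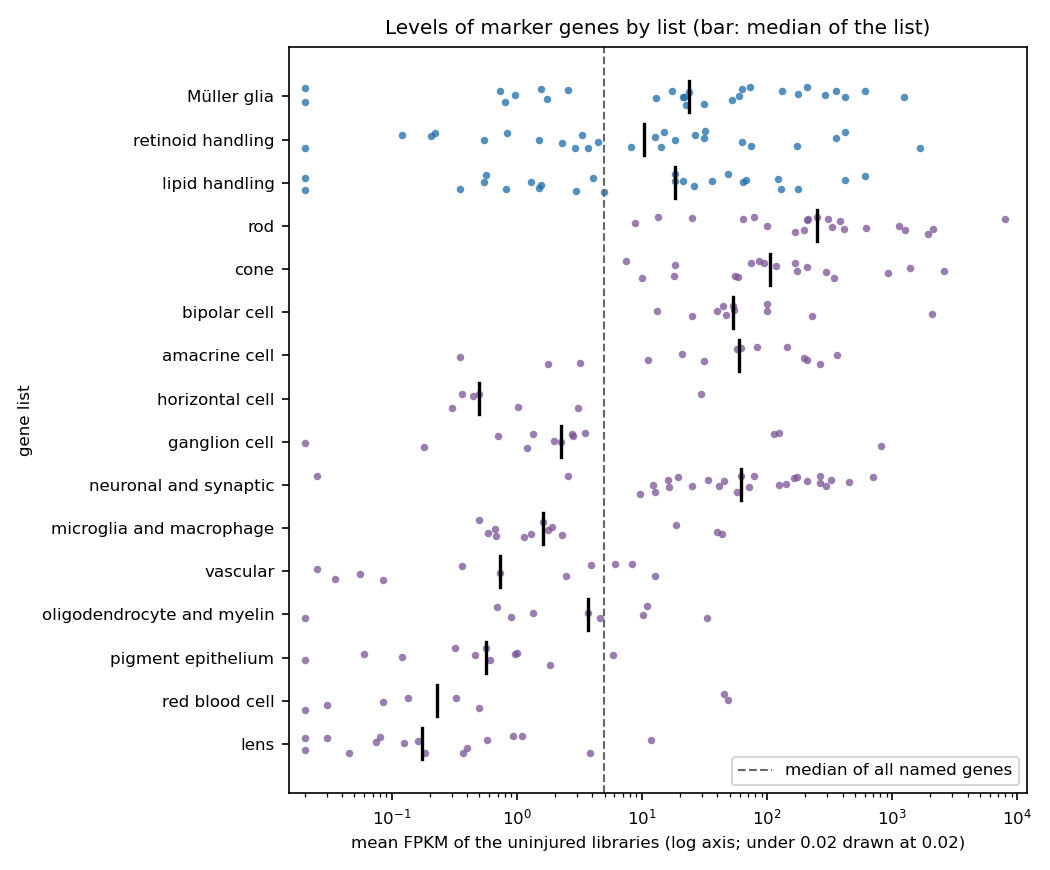
Mean FPKM of the uninjured libraries (log axis) for each matched gene of the lists. Blue points are the Müller glia, retinoid and lipid lists, and purple points the other cell type and neuronal lists. The retinoid list also holds photoreceptor genes such as irbp. A bar marks each list's median and a dashed line the median of all named genes. Rod, cone, bipolar, amacrine and synaptic medians lie to the right of the Müller glia median of 23.5 FPKM, and the medians of pigment epithelium, vascular, red blood cell, lens and horizontal cell genes lie under 1 FPKM.

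The pigment epithelium, vascular, lens, red blood cell, microglia and myelin lists each had a median below that of all named genes, although single members were above it. The 11 matched pigment epithelium genes had a median of 0.565 FPKM, with rpe65a, the retinoid isomerase of that tissue, at 6.56 and 5.22 FPKM and tyr, the enzyme of melanin synthesis, at 0 and 0.03 FPKM. The vascular list had a median of 0.725 FPKM over 11 genes, with the endothelial cadherin gene cdh5 at 12.4 and 13.1 FPKM and the pericyte gene pdgfrb at 8.42 and 8.04 FPKM. Lens genes had a median of 0.173 FPKM over 16 genes, and cryba4, a lens crystallin, was the highest at 15.2 and 8.29 FPKM. Red cell genes had a median of 0.23 FPKM, but the adult globin genes ba1 and hbaa1 were at 40.2 and 57.4 FPKM and at 41.3 and 49.6 FPKM. The listed loci of 6 of the 11 vascular genes, cdh5 among them, and of ba1 and hbaa1 are shared with other rows. Of 13 microglia and macrophage genes, 9 (69.2%, against 69.7% of all named genes) were at 1 FPKM or more in both libraries, with a median of 1.6 FPKM. mpeg1 was at 2.97 and 1.57 FPKM and the receptor csf1ra at 1.72 and 1.48 FPKM, whereas apoc1l was at 48.8 and 38.9 FPKM and cd74a, an antigen presentation gene, at 40.3 and 38.6 FPKM. Among 9 myelin genes, mbpa, a myelin basic protein, was at 32.2 and 33.9 FPKM, sox10 at 4.25 and 4.90 FPKM and olig1 listed at 0. The summed levels of these 6 lists were 0.00346 to 0.033 times that of the MG list in library a and 0.00274 to 0.0279 times in library b.

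Of 25 matched genes of amino acid transporters, 20 (80.0%, against 69.7% of all named genes) were at 1 FPKM or more in both libraries, and the median was 13.3 FPKM. slc6a9, a glycine transporter of amacrine cells, was at 191 and 199 FPKM. slc3a2b, the heavy chain that brings large neutral amino acid transporters to the membrane, was at 136 and 129 FPKM, and slc6a6b, a taurine transporter, at 116 and 124 FPKM. slc38a2, which carries neutral amino acids such as glutamine, was at 100.5 and 96.3 FPKM. Glutamate transporters spanned a wide range. slc1a9 was at 73.3 and 68.3 FPKM, slc1a8b at 37.8 and 38.3 FPKM, slc1a2a at 22.03 and 20.41 FPKM and slc1a7a at 10.1 and 9.30 FPKM. The GABA transporter slc6a13 was at 3.92 and 4.06 FPKM and slc6a11 at 0.03 and 0 FPKM.

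Among carriers of sugar, lactate and creatine, bsg, the chaperone of lactate transporters, was at 233 and 229 FPKM. slc2a1a, a glucose transporter, was at 133 and 148 FPKM, and its paralog slc2a1b at 19.1 and 20.1 FPKM. The lactate transporters slc16a3 and slc16a1 were at 39.2 and 44.9 FPKM and at 22.8 and 23.5 FPKM, and slc6a8, which carries creatine, was at 27.2 and 28.0 FPKM. Ion transport was led by the sodium-potassium ATPase, which restores the ion gradients of active neurons. atp1b2a, a beta subunit, was at 1146 and 1070 FPKM and atp1a3b, an alpha subunit of neurons, at 762 and 722 FPKM. The listed locus of atp1b2a is shared with another row. atp1a1b, another alpha subunit, was at 150 and 143 FPKM. atp1a2a, of the alpha2 type that marks astrocytes in mammals, was at 0.16 and 0.29 FPKM. The bicarbonate carrier slc4a4a was at 42.7 and 40.3 FPKM and ca14, a membrane carbonic anhydrase, at 11.0 and 12.4 FPKM.

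Retinoid genes included carriers of both photoreceptors and MG. irbp, which encodes the retinoid carrier of the photoreceptor matrix, was at 417 and 427 FPKM. rdh10a, a retinol dehydrogenase, was at 161 and 184 FPKM, and cyp26a1, which breaks down retinoic acid, at 71.4 and 76.0 FPKM. crabp1a, which binds retinoic acid, was at 59.6 and 66.1 FPKM and rgra, an opsin of MG and pigment epithelium, at 32.8 and 30.4 FPKM. The retinoic acid synthesis genes aldh1a3 and aldh1a2 were at 17.1 and 19.7 FPKM and at 11.9 and 13.4 FPKM. lrata, which esterifies retinol, was listed at 0 in both libraries, and rdh5, an 11-cis retinol dehydrogenase, was at 0.57 and 0.51 FPKM. Over 26 retinoid genes, 20 (76.9%, against 69.7% of all named genes) were at 1 FPKM or more in both libraries and the median was 10.4 FPKM. Lipid genes had a median of 18.2 FPKM over 25 members. Beside apoeb, clu and fabp7a, the lysosomal gene psap was at 127 and 129 FPKM, pltp, a phospholipid transfer protein, at 66.95 and 67.15 FPKM and the cholesterol exporter abcg1 at 66.7 and 61.8 FPKM. hmgcs1, an enzyme of cholesterol synthesis, was at 37.5 and 59.3 FPKM.

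Glucose metabolism genes included members at high levels and members near 0. Of 37 matched genes, 14 reached 100 FPKM in both libraries, against 3.61% of all named genes. At 1 FPKM or more in both libraries were 26 of the 37, a share close to the 69.7% of all named genes. The other 11 were under 1 FPKM in at least 1 library, so such members were about as frequent as among all named genes. aldocb, an aldolase, was at 873 and 832 FPKM, eno1a, an enolase, at 696 and 738 FPKM and pkma, a pyruvate kinase, at 545 and 602 FPKM. ldhba, a lactate dehydrogenase B, was at 371 and 366 FPKM and ldha at 251 and 244 FPKM. pygmb, a glycogen phosphorylase, was at 148 and 139 FPKM and gys1, a glycogen synthase, at 15.3 and 16.7 FPKM. hk1, a hexokinase, was at 63.0 and 64.7 FPKM and hk2 at 0.32 and 0.17 FPKM.

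The housekeeping reference list had a median of 106 FPKM over 29 genes, and 28 (96.6%, against 69.7% of all named genes) were at 1 FPKM or more in both libraries. actb2, a cytoplasmic actin, was at 473 and 457 FPKM and eef1a1a, an elongation factor, at 308 and 306 FPKM. ppiab, a cyclophilin, was at 265 and 257 FPKM and ubc, a polyubiquitin, at 237 and 207 FPKM. tbp, a general transcription factor, was at 11.8 and 11.4 FPKM and hprt1, of purine salvage, at 7.75 and 8.41 FPKM. The exception was gapdh at 0.40 and 0.15 FPKM, while gapdhs ranked 8 in each library. rps18, a ribosomal protein gene often used as a reference, was at 182 and 243 FPKM, and b2m at 41.6 and 26.4 FPKM, differences beyond the 1.16-fold and the 1.32-fold within which 95% of genes of their levels agreed.

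Duplicated genes were compared within each library, so that a difference in scaling between the libraries cancels in ratios of plain FPKM. Of 76 pairs from gene families, both members were matched for 60, and in 56 at least 1 member was at 1 FPKM or more in each library. The same member was the higher in both libraries in all 56. Ratios on the (FPKM + 1) scale exceeded 2-fold in both libraries in 44 pairs and 4-fold in 33. The widest pairs had a member near 0. apoea was listed at 0 against apoeb. aldoca was at 0.07 and 0.05 FPKM against aldocb, and pkmb at 0.14 and 0.03 FPKM against pkma. aldoaa, another aldolase, was at 285 and 265 FPKM and aldoab at 0.47 and 0.28 FPKM. gpia, a glucose phosphate isomerase, was at 182 and 157 FPKM and gpib at 0 and 0.06 FPKM. pygma was at 0.07 and 0 FPKM against pygmb. No ratio is given for these pairs because the lower member is at or close to 0.

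Several pairs of glial genes were also unequal. glula was 20.8-fold and 21.2-fold above glulb, which was at 57.6 and 60.3 FPKM. rlbp1a was 12.4-fold and 10.4-fold above rlbp1b, at 28.9 and 33.7 FPKM. slc1a2b was 9.39-fold and 10.1-fold above slc1a2a, and fabp7b was at 1.26 and 1.84 FPKM against fabp7a. sox9a, which was low, was only 1.29-fold and 1.68-fold above sox9b. Among other transporter pairs, atp1a3b was 10.1-fold and 8.79-fold above atp1a3a, and slc2a1a was 6.97-fold and 7.35-fold above slc2a1b. Other pairs were nearly even. ppiab was 1.203-fold and 1.159-fold above ppiaa, atp1b3b was 1.19-fold and 1.25-fold above atp1b3a, and insrb, an insulin receptor, was 1.02-fold and 1.14-fold above insra. Between the libraries, 95% of genes of 100 to 1000 FPKM differed by less than 1.16-fold and of 10 to 50 FPKM by less than 1.32-fold. Ratios of pairs with near-identical sequence depend on how reads were divided between copies, which is not given in the sources used here.

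**Figure D4:**
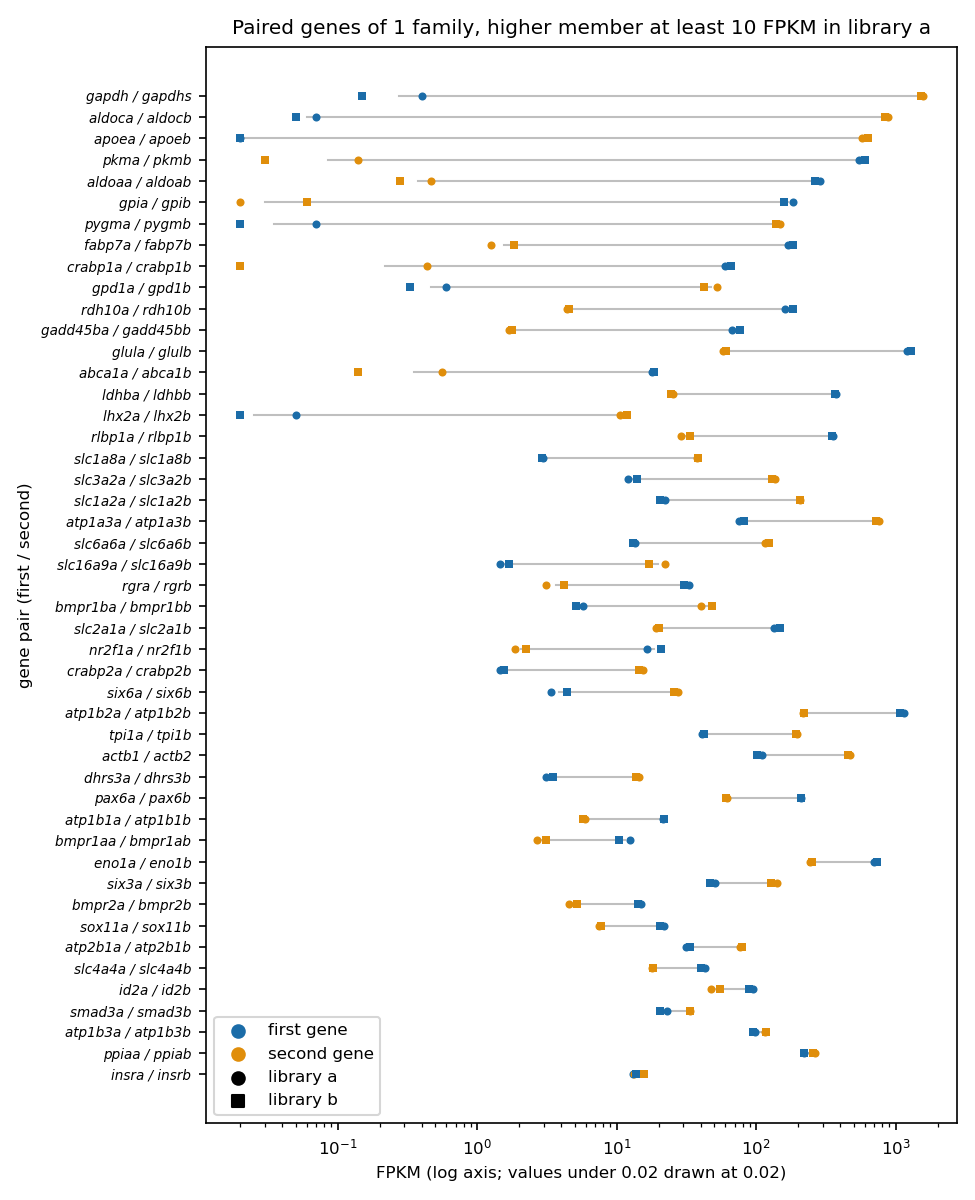
FPKM (log axis) of the first (blue) and second (orange) gene of each pair, in library a (circles) and library b (squares), for pairs whose higher member had at least 10 FPKM in library a. Pairs are ordered by the mean absolute log2 ratio, from gapdh and gapdhs at the top to insra and insrb at the bottom.

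Signalling lists had lower medians than the metabolic, housekeeping and photoreceptor lists. Medians of the Notch, Tgfb and Bmp, Wnt, Fgf, Egf and insulin, Jak and Stat, and Hedgehog and Hippo lists were 2.06, 4.15, 1.18, 3.79, 1.85 and 1.79 FPKM, each below the 4.95 FPKM of all named genes. In the Notch pathway, a ligand on a neighbouring cell activates the receptor, whose inner part turns on her and hey genes with Rbpj. Of 33 matched genes, 20 were at 1 FPKM or more in both libraries, which is 60.6% against 69.7% of all named genes. The receptor gene notch3 was at 6 and 6.22 FPKM, and notch2 was at 1.17 and 0.92 FPKM. notch1a was at 4.71 and 0.86 FPKM, a difference between the libraries beyond the 1.56-fold within which 95% of genes of its level agreed. The ligand gene dll4 was at 6.19 and 5.90 FPKM, and the summed level of 8 ligand genes was 11.1 and 12.1 FPKM. The highest Notch gene was lfng, a Fringe enzyme that alters receptor sugars, at 68.0 and 67.2 FPKM. Of the 14 her and hey genes, hey1 was at 23.4 and 23.5 FPKM, her6 at 19.97 and 22.19 FPKM and her15.1 at 12.3 and 14.3 FPKM. her4.1 was at 4.28 and 3.29 FPKM, a member of a tandem array of similar copies, and heyl was listed at 0.

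In the Tgfb and Bmp pathways, ligands bind paired receptors that phosphorylate Smads. Of 44 matched genes, 31 (70.5%, against 69.7% of all named genes) were at 1 FPKM or more in both libraries. Ligand genes were dominated by tgfb3, at 75.1 and 78.9 FPKM, against a sum of 91.6 and 93.9 FPKM over all 10 ligand genes. bmp7b was the next at 6.96 and 7.91 FPKM. The Bmp receptor gene bmpr1bb was at 40.0 and 48.4 FPKM and the activin receptor gene acvr2a at 24.9 and 26.9 FPKM. The Tgfb receptor genes were lower, with tgfbr1b at 3.42 and 3.44 FPKM, tgfbr1a at 1.91 and 1.21 FPKM and tgfbr2 at 0.03 and 0 FPKM. smad3b, an effector of Tgfb receptors, was at 33.3 and 33.6 FPKM and smad3a at 23.0 and 20.6 FPKM, and the inhibitor gene smad7 was at 26.5 and 25.2 FPKM. All 5 Id genes, which are known targets of Bmp receptors, were at 1 FPKM or more, with id1 at 105 and 111 FPKM and id2a at 95.4 and 88.0 FPKM. Their sum of 268 and 276 FPKM was 2.93 and 2.94 times that of the ligand genes. Most of the ligand sum was tgfb3, which is not a Bmp ligand, so this ratio is no measure of Bmp signalling.

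The Wnt list had the lowest median of the 6 pathways, and 8 Wnt ligand genes summed to 4.65 and 4.26 FPKM. Of these, wnt7ba was the highest at 2.46 and 1.5 FPKM. The receptor gene fzd3a was at 15.8 and 15.7 FPKM and the co-receptor gene lrp6 at 16.1 and 14.5 FPKM. Among intracellular members, whose median of 1.55 FPKM over 12 genes was below the 2.01 FPKM of 15 receptor genes, the highest were apc at 33.9 in each library and ctnnb1, which encodes beta-catenin, at 30.3 and 36.3 FPKM. The secreted inhibitor gene dkk1b was at 18.3 and 16.9 FPKM, and dkk3b was under 1 FPKM. Of 45 genes, 21 were at 1 FPKM or more in both libraries, which is 46.7% against 69.7% of all named genes.

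Among growth factor genes, the feedback and target genes of Fgf and Mapk signalling were the highest. dusp6, a phosphatase of Erk, was at 77.5 and 80.3 FPKM, etv5a, an Ets factor, at 72.7 and 77.7 FPKM and etv5b at 56.4 and 57.6 FPKM. fgf13a, a member of the Fgf family, was at 28.4 and 33.7 FPKM. The ligand gene fgf2 was at 10.8 and 21.6 FPKM, a difference between the libraries beyond the 1.32-fold of 95% of genes of its level. igf1 was at 12.7 and 15.5 FPKM. The Egf receptor gene egfra was at 10.02 and 9.46 FPKM, fgfr1a at 4.37 and 4.80 FPKM and the Egf ligand gene hbegfa at 0.31 and 0.57 FPKM. In the Jak and Stat pathway, stat1a was at 17.4 and 16.6 FPKM, stat3 at 4.02 and 4.39 FPKM and jak1 at 8.70 and 10.2 FPKM. The receptor genes il6st and lifra were at 6.17 and 5.95 FPKM and at 5.73 and 6.70 FPKM. Cytokine genes were low, with lepb at 1.96 and 1.67 FPKM, crlf1a at 0.73 and 0.83 FPKM and il11a listed at 0. In the Hedgehog and Hippo pathways, sufu, an inhibitor of Gli factors, was at 14.5 and 14.1 FPKM, yap1, the Hippo effector, at 7.17 and 5.47 FPKM and shha, a ligand, at 0.76 and 0.59 FPKM.

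**Figure D5:**
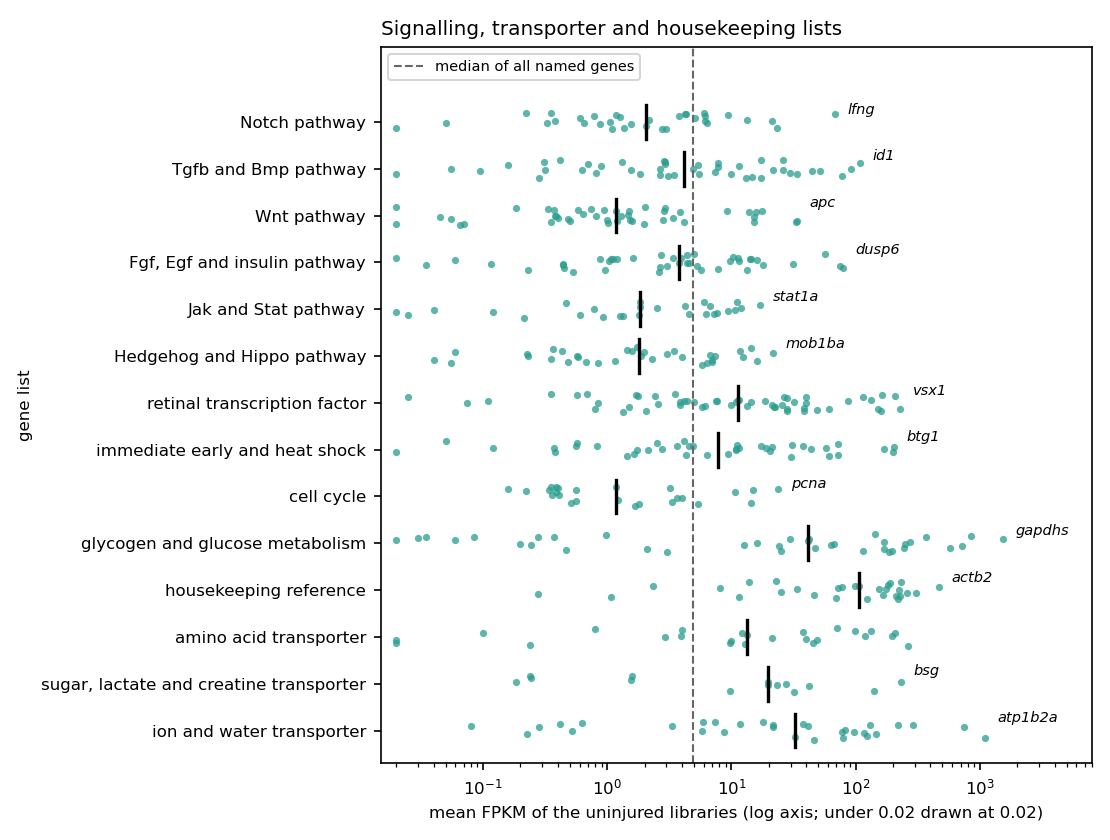
Mean FPKM of the uninjured libraries (log axis) for each matched gene of the signalling, transporter, metabolic and housekeeping lists, with a bar at each list's median and the highest gene named in all lists but that of amino acid transporters. The 6 pathway medians lie between 1.18 and 4.15 FPKM, and the housekeeping median is 106 FPKM.

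Of 55 matched transcription factor genes of the retina, 47 (85.5%, against 69.7% of all named genes) were at 1 FPKM or more in both libraries, with a median of 11.3 FPKM. After vsx1, pax6a, a factor of amacrine cells, ganglion cells and MG, was at 210 and 208 FPKM. crx and otx5, of photoreceptors and bipolar cells, were at 162 and 163 FPKM and at 116 and 114 FPKM. neurod and neurod4, bHLH genes of retinal neurons, were at 166 and 156 FPKM and at 159 and 143 FPKM. six3b was at 140 and 128 FPKM. lhx2b, a LIM homeobox gene of MG, was at 10.6 and 11.9 FPKM and nfia, a glial factor, at 14.2 and 14.7 FPKM. Among genes of the injury response, ascl1a was at 0.24 and 1.13 FPKM and lin28a at 0 and 0.15 FPKM. insm1a was at 3.80 and 3.96 FPKM, and each of these genes lay below the median named gene.

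Cell cycle genes had a median of 1.18 FPKM over 25 members, and 12 of them (48.0%, against 69.7% of all named genes) were at 1 FPKM or more in both libraries. pcna, the sliding clamp of DNA replication, was at 23.9 and 23.8 FPKM. cdkn1bb, a Cdk inhibitor of the p27 type, was at 14.95 and 13.70 FPKM. The cyclin gene ccne2 was at 8.96 and 12.3 FPKM. Under 1 FPKM were top2a at 0.66 and 0.46 FPKM, cdk1 at 0.54 and 0.28 FPKM and ccna2 at 0.39 and 0.29 FPKM. Immediate early and heat shock genes had a median of 7.86 FPKM over 40 members. btg1 was at 208 and 196 FPKM, dusp1 at 193 and 205 FPKM and the constitutive chaperone gene hspa8 at 180 and 156 FPKM. egr1 was at 45.8 and 41.9 FPKM, jun at 11.4 and 11.6 FPKM and fos at 9.37 and 12.6 FPKM. The inducible chaperone gene hsp70l was at 1.45 and 1.41 FPKM, atf3 at 2.1 and 2.19 FPKM and egr2b was listed at 0.

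The study also followed PP2A and p38 MAPK. ppp2cb, a catalytic subunit of PP2A, was at 74.8 and 82.4 FPKM and ppp2ca, the other, at 46.2 and 49.6 FPKM. The scaffold subunit gene listed as ppp2r1a was at 118 and 113 FPKM. mapk14a, a p38 kinase, was at 24.3 and 24.0 FPKM and mapk14b at 9.57 and 12.6 FPKM. The cytidine deaminase family gene apobec2a was at 0.15 and 0.41 FPKM.

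Few genes with a mean of at least 50 FPKM differed by over 1.5-fold between the uninjured libraries. Of 971 named genes with a mean of at least 50 FPKM, 9 differed by over 1.5-fold and 2 by over 2-fold. pigp, an enzyme subunit of GPI anchor synthesis, was at 22.5 and 92.5 FPKM, and its listed locus is shared with another row. hadhb, of fatty acid oxidation, was at 105 and 249 FPKM. The table gives hadhb a short locus, bases 48621120 to 48621490 of chromosome 20 in the unnamed build. osbp, a sterol-binding protein, was at 44.4 and 84.6 FPKM and sec61b, of the translocon, at 45.1 and 88.6 FPKM. fkbp1b was higher in library a, at 222 and 119 FPKM, as was fkbp5, a glucocorticoid-responsive gene, at 153 and 106 FPKM. Among genes with a mean of at least 5 FPKM, 16 of 21 rod genes and 9 of 11 amacrine cell genes were higher in library b, and 9 of 11 bipolar cell genes and 17 of 26 housekeeping genes were lower, against 3159 higher and 3067 lower of 6238 named genes. The median log2 differences were 0.04 for rods, 0.07 for amacrine cells, -0.05 for bipolar cells and -0.04 for housekeeping genes. The MG list also shifted up, with 12 of 19 genes higher in library b and a median of 0.07. Of 18 cone genes, 7 were higher and 11 lower, with a median of -0.03. Some lists with few genes at this level shifted more, with -0.32 for 3 microglia and macrophage genes and 0.38 for the 2 globin genes. The values were -0.28 for rpe65a, the 1 pigment epithelium gene, and -0.80 for cryba4, the 1 lens gene. Other short lists shifted less, with 0.03 for 3 ganglion cell genes, -0.06 for 3 vascular genes and -0.08 for 3 myelin genes. The 1 horizontal cell gene, prox1a, shifted by 0.007. In both libraries, each of the 30 lists lay on the same side of the median of all named genes, with 15 above it and 15 below.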

How the data were processed

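RNA levels in 2 uninjured libraries were analysed from a table of 6 libraries. The authors deposited FPKM values for each gene and library, rounded to 0.01, in the layout of Cuffdiff. The submitters' processing notes name CASAVA, TopHat and Bowtie2, without versions. The genome build, annotation and strand setting are not given in the sources used here. The table lists each gene 3 times, once for each comparison of groups, and also holds group means, fold changes, p-values and q-values of the authors' own comparisons, which were not used. A further 6 columns, which hold scaled fragment values for each library, were not used. Depth was therefore not examined.

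One row was kept for each gene identifier, and rows of a symbol were summed. Names were matched to RefSeq genes of GRCz12tu, for names only. Levels, ranks and medians were computed per library. No group was compared and no test was run, since an exact test over 2 libraries cannot pass 0.05. Lists of genes (30 lists, 852 entries, 711 distinct genes matched) and 76 gene pairs were used. Of the 711 genes, 96 share their listed locus with another row, so their levels are less certain. The members and lists were chosen with earlier results of these data known. Genes named in the text are the 30 highest, up to 8 highest of each list with members near 0, pairs with the widest and most even ratios, up to 10 genes of at least 50 FPKM that differed most between the libraries, and genes the study names. Some further list members outside this rule were chosen after their values were seen. Some genes that the rule takes in are not reported here. Alternatives were the highest row in place of the sum, rescaling of named genes to a total of 1000000, other thresholds, pseudocounts and folds, a filter on low members, ranks among all symbols, and leaving out each library. The steps were tested on simulated data. Python 3.11.15, NumPy 2.4.6, pandas 2.3.3, SciPy 1.17.1 and Matplotlib 3.10.9 were used.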

Additional observations from a re-analysis of the deposited data

How the results depend on the processing

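The count of genes at 1 FPKM or more and the share of the 100 highest genes stayed within 1.5 times under the alternatives tried. So did the number of unequal gene pairs and the correlation of the libraries. The share was 26.9% to 27.0% with a library left out. Without library a it was 26.97% against 26.93%, which was counted as a change though within 1.5 times. The correlation was 0.981 to 0.993. Thresholds of 0.1 and 5 FPKM gave 10583 and 6040 genes. Rescaling the named genes to a total of 1000000 gave medians of 90.3 for the MG list, 961 for rods, 237 for neuronal and synaptic genes and 406 for housekeeping genes, with the order of the lists the same by construction. Leaving out members under 1 FPKM gave 55.47 FPKM for the MG list and 115 FPKM for housekeeping genes. Use of only the highest row of a symbol moved none of 126 single-gene levels by more than the spread of the libraries, and ranking all symbols lowered the ranks of rho and ckbb to 12 and 38. With 1 library left out, the medians were 22.6 to 24.7 FPKM for MG, 244 to 257 FPKM for rods, 58.1 to 65.7 FPKM for neuronal and synaptic genes and 102 to 110 FPKM for housekeeping genes, the counts 8910 to 8926 genes and 45 to 46 pairs. No paired analysis was possible because only 1 group was described. FPKM gives no depth, and levels between genes depend on the transcript models and the division of reads among copies.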

Other observations

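Further gene families were collected by symbol after the values had been seen, and are given as levels only. At 1 FPKM or more in both libraries were 111 of 118 RNA-binding and splicing genes (94.1%, against 69.7% of all named genes), with a median of 20.1 FPKM. Beside cirbp and ddx5, srsf11, a splicing factor, was at 580 and 578 FPKM, hnrpdl at 441 and 477 FPKM and khdrbs1a at 393 in each library. All 71 cytosolic ribosomal protein genes matched by name were at 1 FPKM or more, with a median of 153 FPKM, led by rps29 at 371 and 341 FPKM. All 65 respiratory chain genes were at 1 FPKM or more, with a median of 64.6 FPKM, and cox7c was at 333 and 329 FPKM. The 12 ATP synthase genes had a median of 171 FPKM and the 18 V-ATPase genes one of 92.0 FPKM. atp6v0cb, a subunit of the proton pump of vesicles and lysosomes, was at 424 and 410 FPKM.

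Of 48 clock genes, 43 (89.6%, against 69.7% of all named genes) were at 1 FPKM or more in both libraries. bhlhe40, a light-responsive repressor, was at 475 and 473 FPKM, nr1d2b at 194 and 186 FPKM, cry2a at 166 and 180 FPKM and per1b at 65.8 and 67.7 FPKM. The time of day at which the retinas were taken is not given in the sources used here. Among transmitter receptors, the NMDA receptor genes grin1b and grin1a were at 437 and 469 FPKM and at 292 and 319 FPKM, while the median of 20 glutamate receptor genes was 4.43 FPKM. The glycine receptor gene glrba was at 133 and 121 FPKM. Of 47 potassium channel genes, 26 (55.3%, against 69.7%) were at 1 FPKM or more in both libraries. kcnv2a, a channel subunit of photoreceptors, was the highest at 187 and 206 FPKM, and the next, kcnj11l, was at 69.5 and 65.7 FPKM.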
